A study of Homo sapiens with 12 samples.

Results

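The proteasome genes of MonoMac6 (MM6) cells were followed through knockdown of the RNA-binding protein IGF2BP2. Members were all genes of the table whose symbol is PSMA to PSMG plus a number and whose mean value over the 6 mRNA libraries was at least 10. Of 19951 genes listed, 48 had such a symbol and 46 were members. PSMA8 and PSMB11, which encode testis and thymus forms of core subunits, were listed at 0 in all libraries and fell outside; the members with the lowest mean mRNA value were PSMB9 with 293.8 and PSMD9 with 410.7. The mean footprint value was also at least 10 for all 46 members.

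MM6 is an established human monocytic acute myeloid leukemia line. The groups were cells with the non-targeting hairpin shNS and cells with either of 2 hairpins against IGF2BP2, named shBP2-1 and shBP2-2. All groups were transduced with lentivirus for 48 h and kept on puromycin for 2 days, so the control also carried a virus and the drug, and each group was a selected pool rather than a clone. Each group had 2 mRNA libraries and 2 ribosome footprint libraries, the latter from cells given cycloheximide for 15 min. mRNA libraries measure transcript amount, and footprint libraries the fragments covered by ribosomes. The labels do not say that replicates were separate cultures, so p-values measure the spread between these libraries, which may be technical.

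The proteasome degrades proteins tagged with ubiquitin. Its 20S core is a barrel of alpha rings, which form the gate, and beta rings, of which PSMB5, PSMB6 and PSMB7 carry the proteolytic sites. In immune and monocytic cells these can be exchanged for the interferon-inducible PSMB8, PSMB9 and PSMB10. The 19S regulatory particle caps the core: its PSMC subunits form a ring of ATPases that unfolds substrates, and its PSMD subunits bind ubiquitin chains, remove them or hold the particle together. The PSME activators cap the core without ATP, PSMF1 (PI31) is a proteasome-binding inhibitor and regulator, and PSMG chaperones assemble the core. The members comprised 7 alpha genes (PSMA), 10 beta genes (PSMB), 6 ATPase genes (PSMC), 14 PSMD genes, 4 activators (PSME), PSMF1 and 4 chaperones (PSMG). PSMD5, PSMD9 and PSMD10 carry PSMD names but act as chaperones of the ATPase ring.

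The deposited values are normalized read counts rounded to whole numbers; footprint totals still ran from 456338 to 504631 with shBP2-1, 1686279 to 2583384 with shBP2-2 and 4423843 to 4884067 with shNS, and mRNA totals from 22685066 to 24854593. Values were therefore rescaled within each assay by median-ratio factors, and every level below is a rescaled value; a footprint change is relative to the middle gene, not an amount per cell. Levels of different genes are not compared, since they were not divided by length. IGF2BP2 mRNA was 2453 and 2343 with shNS, 469 and 504.5 with shBP2-1 and 713.1 and 782.7 with shBP2-2, which left 20.3% and 31.2%. The 8 monocytic AML markers were all detected, with summed mRNA of 105900 to 108000 with shNS, 157000 to 159800 with shBP2-1 and 83530 to 84130 with shBP2-2, most of it LYZ; 3 of 5 T and NK cell markers were at 0, the list's sum of 1458 to 2118 being nearly all NKG7, and the B cell, erythroid and megakaryocyte, and epithelial and fibroblast lists summed to at most 63.6. The part of the marker shift between hairpins in the results was not tested. Because these are bulk libraries, fewer cells of a kind and less RNA per cell cannot be told apart.

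Proteasome mRNAs moved in both directions, with alpha and beta genes of the same core particle apart. Against shNS, over the mean of both hairpins, 17 members rose and 20 fell, 37 of 46 in all (80.4%), by limma at a Benjamini-Hochberg adjusted p under 0.05. Of the 12203 genes tested 58.9% were called, 28.9% higher and 30.0% lower, so most of the transcriptome moved too. Of the alpha genes 5 of 7 rose and 0 fell, with a median log2 fold change of 0.44; of the beta genes 1 of 10 rose and 7 fell, with a median of -0.36. With shBP2-1 alone 2 of 10 beta genes fell, a share near the 21.0% of all genes that fell, and with shBP2-2 alone 8 of 10 fell, where 28.8% did. Alpha genes rose in 5 of 7 with shBP2-1, where 23.5% of all genes rose, and in 4 of 7 with shBP2-2, where 28.2% did. The signs of both medians were the same with deposited values, equal totals and quantile scaling. Over all genes the median was -0.01.

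**Figure D1:**
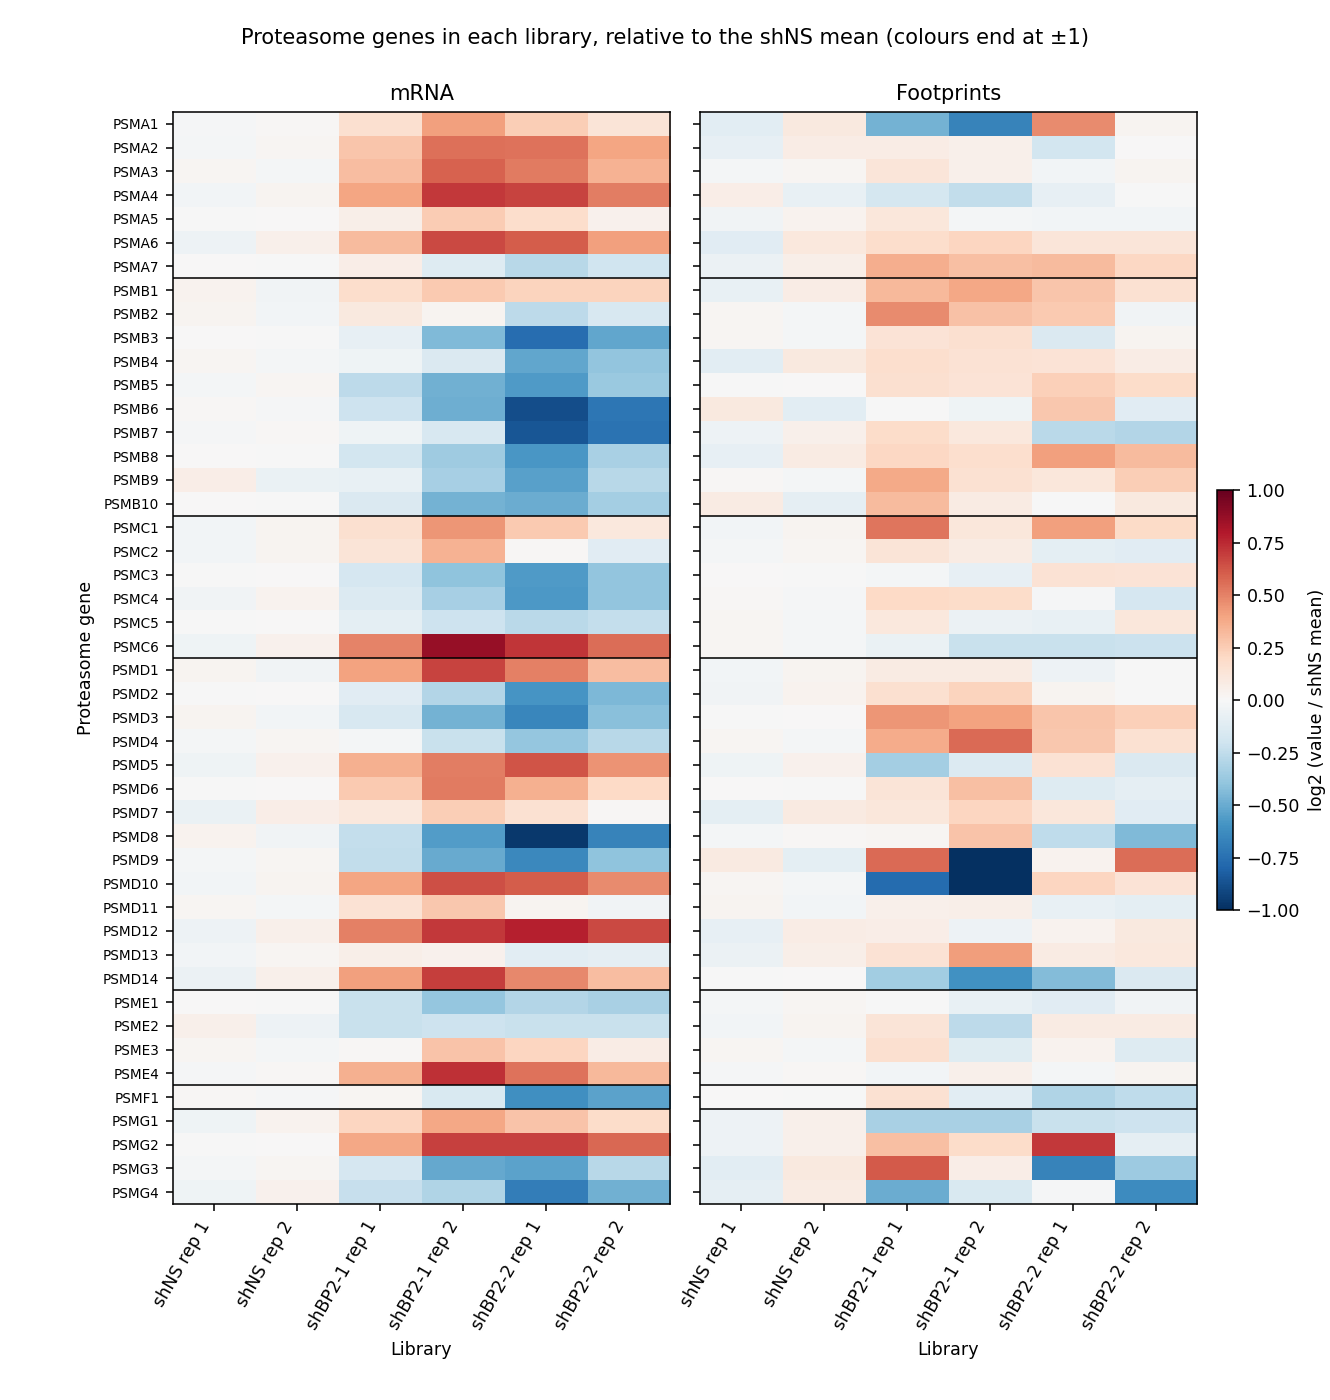
Rescaled mRNA (left) and footprint (right) values of the 46 members in each of the 6 libraries per assay, as log2 of the value over the shNS mean, by class from PSMA at the top to PSMG at the bottom; colours end at ±1. In mRNA most PSMA rows are red and most PSMB rows blue in the knockdown libraries; the footprint panel is paler, with the darkest cells in PSMA1, PSMD9 and PSMD10 with shBP2-1 and PSMG2 with shBP2-2.

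Among the alpha genes, PSMA4 mRNA was 6758 and 7013 with shNS, 9065 and 11231 with shBP2-1, and 10980 and 9798 with shBP2-2. All 4 knockdown libraries lay above both control libraries, and the log2 fold change was 0.57 ± 0.10 (SE; limma adjusted p = 0.000616). PSMA2, PSMA3 and PSMA6 rose by 0.44, 0.44 and 0.50 on the log2 scale and PSMA1 by 0.24. PSMA5 (0.13) and PSMA7 (-0.13 ± 0.09) did not pass the test. Without either shNS mRNA library the count of members called fell from 37 to 20 (without replicate 1) or 19 (without replicate 2); 17 calls, 12 higher and 5 lower, held without any one library.

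PSMB5, PSMB6 and PSMB7 all fell in mRNA over the mean of both hairpins and with shBP2-2; with shBP2-1 PSMB5 and PSMB6 fell and PSMB7 was not called (-0.10 ± 0.10, log2, SE; limma adjusted p = 0.398). PSMB5, the chymotrypsin-like site and the main target of bortezomib, had mRNA values of 2337 and 2399 with shNS, 1979 and 1698 with shBP2-1, and 1599.8 and 1828 with shBP2-2. Every knockdown library lay below both controls, and the log2 fold change was -0.42 ± 0.10 (SE; limma adjusted p = 0.00258). PSMB6, the caspase-like site, was at 829.9 and 816.2 with shNS, 712.8 and 586.1 with shBP2-1, and 444.4 and 498.8 with shBP2-2. The groups did not overlap and shBP2-2 was lowest, with a log2 fold change over both hairpins of -0.58 ± 0.11 (SE; limma adjusted p = 0.000834). PSMB7, the trypsin-like site, was at 2909 and 2969.5 with shNS, 2850.2 and 2626 with shBP2-1, and 1623 and 1758 with shBP2-2. Its change of -0.45 ± 0.09 (log2, SE; limma adjusted p = 0.000977) lay mostly in the shBP2-2 libraries.

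Of the immunoproteasome genes, 2 of 3 fell in mRNA over the mean of both hairpins, 0 of 3 were called with shBP2-1 (limma adjusted p of 0.0616 for PSMB8, 0.266 for PSMB9 and 0.0597 for PSMB10) and 3 of 3 fell with shBP2-2. PSMB8 was at 1984 and 1969 with shNS, 1736 and 1546 with shBP2-1, and 1319.9 and 1579 with shBP2-2. PSMB10 was at 782.2 and 774.4 with shNS, 703.9 and 560.2 with shBP2-1, and 552.7 and 616.5 with shBP2-2. In both genes every knockdown library was below the controls, and both had a log2 fold change of -0.36 (limma adjusted p = 0.00633 and 0.012). PSMB9 was at 350.4 and 319.1 with shNS, 318.5 and 265.7 with shBP2-1, and 229.9 and 276.8 with shBP2-2, and missed the threshold at -0.30 ± 0.13 (log2, SE; limma adjusted p = 0.051). Without shNS replicate 1 the limma adjusted p became 0.0741 for PSMB8 and 0.102 for PSMB10, and without shNS replicate 2 it became 0.0565 and 0.0777. The log2 mRNA ratio of each inducible gene to its counterpart shifted against shNS by 0.10 and 0.02 (shBP2-1, shBP2-2) for PSMB8 over PSMB5, by 0.15 and 0.40 for PSMB9 over PSMB6, and by -0.21 and 0.38 for PSMB10 over PSMB7. PSMB1, a beta subunit with no proteolytic site, was the beta gene that rose, from 3070.3 and 2929 with shNS to 3383 and 3592 with shBP2-1 and 3494 and 3497 with shBP2-2. Its log2 fold change was 0.22 ± 0.08 (SE; limma adjusted p = 0.0343), and the call was lost in 4 of the 6 fits without 1 mRNA library, with limma adjusted p of 0.148 (shNS replicate 1), 0.271 (shNS replicate 2), 0.0998 (shBP2-2 replicate 1) and 0.0907 (shBP2-2 replicate 2).

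The regulatory particle held calls in both directions within each kind of subunit. Of the ATPases 2 of 6 rose and 3 fell, of the PSMD genes 6 of 14 rose and 5 fell, and of the activators 1 of 4 rose and 2 fell. Of all genes tested 28.9% rose and 30.0% fell. Among these falls only the call of PSMD8 held without any one library. Among these rises the calls of PSMC1 and PSMD6 did not hold in that way. PSMC6, an ATPase, was at 2306 and 2449.6 with shNS, 3352 and 4340.5 with shBP2-1, and 3899 and 3509 with shBP2-2, while PSMC3, PSMC4 and PSMC5 fell by 0.38, 0.36 and 0.20 on the log2 scale. PSMC6 thus lay above the controls in all 4 libraries, by 0.66 ± 0.11 (log2, SE; limma adjusted p = 0.000452). PSMD12, a lid subunit, was at 6179 and 6651 with shNS, 9076.5 and 10459 with shBP2-1, and 10966 and 10146 with shBP2-2. It was the member with the smallest p, and all 4 knockdown libraries lay above both controls (0.66 ± 0.09, log2, SE; limma adjusted p = 0.000218). PSMD8, another lid subunit, went the other way, from 5132 and 4896 with shNS to 4248 and 3403 with shBP2-1 and 2572 and 3149 with shBP2-2. All its knockdown libraries were below the controls, with a log2 fold change of -0.61 ± 0.11 (SE; limma adjusted p = 0.000717). PSMD14, the deubiquitinase of the lid, rose in mRNA from 2603 and 2804.5 with shNS to 3593 and 4357 with shBP2-1 and 3772 and 3356 with shBP2-2, by 0.47 ± 0.10 (log2, SE; limma adjusted p = 0.00165).

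The remaining regulators split in the same manner. PSME4 (PA200), a nuclear cap of the core, rose by 0.49 on the log2 scale, and the interferon-inducible PSME1 and PSME2 fell by 0.31 and 0.22. The PSME2 fall was called with neither hairpin alone (limma adjusted p of 0.0792 with shBP2-1 and 0.0584 with shBP2-2). PSMF1 was at 2623 and 2579.8 with shNS, 2644 and 2338 with shBP2-1, and 1705 and 1794 with shBP2-2, and fell by 0.32 (limma adjusted p = 0.00722). Its limma adjusted p became 0.104 when shNS replicate 1 was left out and 0.0706 when replicate 2 was. The first of the shBP2-1 libraries was above both controls, so the groups overlapped for that hairpin. The chaperone pair PSMG1 and PSMG2 rose and the pair PSMG3 and PSMG4 fell, but only the PSMG2 call held without any one library. PSMG3 and PSMG4 were not called with shBP2-1 alone (limma adjusted p of 0.0515 and 0.0799). PSMG1 was not called with shBP2-2 alone (limma adjusted p = 0.0625). PSMG2 was at 1432 and 1446.5 with shNS, 1886 and 2311.5 with shBP2-1, and 2313 and 2142 with shBP2-2, above the controls throughout (0.58 ± 0.10, log2, SE; limma adjusted p = 0.000556). PSMG1 rose by 0.27, and PSMG3 and PSMG4 fell by 0.37 and 0.42 on the log2 scale.

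The median mRNA log2 fold change was -0.13 over the 17 genes of the 20S core and 0.10 over the 24 PSMC, PSMD and PSME genes, a difference of -0.23 that was not tested, since members are not replicates. By library, the 20S minus regulatory difference was 0.018 and -0.018 with shNS, -0.024 and -0.385 with shBP2-1, and -0.298 and -0.137 with shBP2-2. The first shBP2-1 library thus lay just below the controls, and the other 3 further below. Without PSMB8, PSMB9 and PSMB10 the difference was -0.07. The alpha minus beta difference in mRNA was larger, 0.36 and 0.89 with shBP2-1 and 1.07 and 0.70 with shBP2-2, against -0.025 and 0.025 with shNS, with a fitted difference of medians of 0.80.

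**Figure D2:**
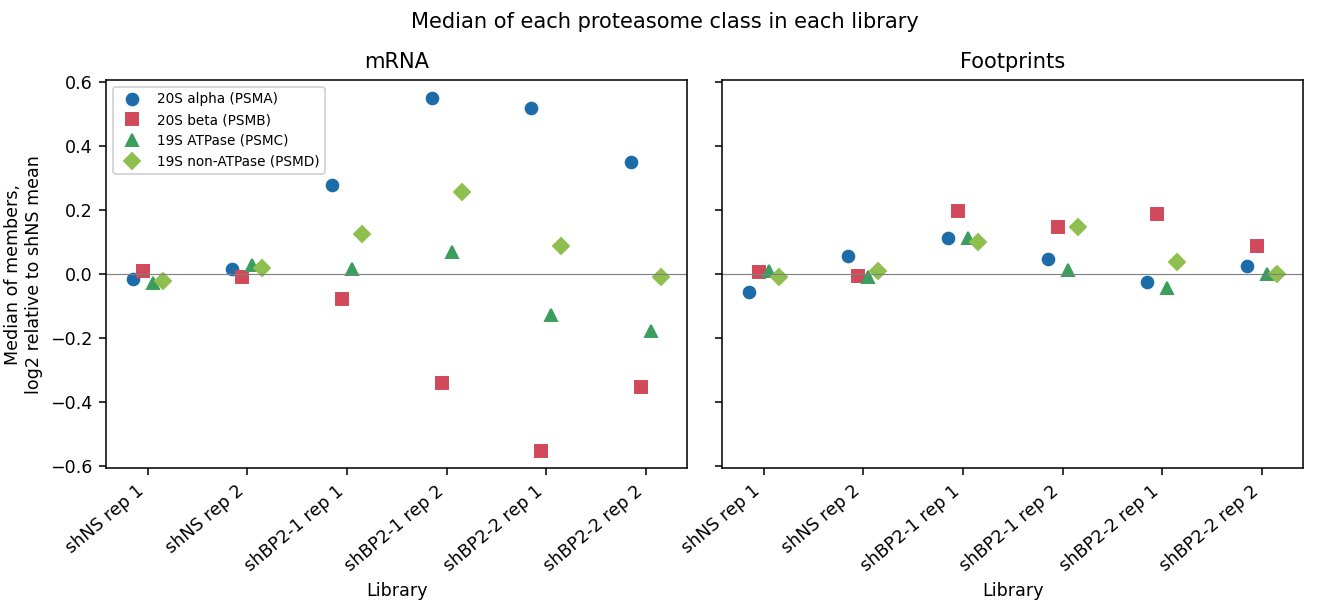
Median of the PSMA, PSMB, PSMC and PSMD classes in each library (log2 relative to the shNS mean, mRNA and footprints in separate panels; a point is the median over the class's members in 1 library). Alpha mRNA medians lie at 0.28 to 0.55 and beta medians at -0.55 to -0.08 in the 4 knockdown libraries, while their footprint medians there lie at -0.025 to 0.112 (alpha) and 0.088 to 0.197 (beta).

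Promoters of rising and falling members were compared for the antioxidant response element, through which the transcription factor NFE2L1 drives proteasome genes. RefSeq (GRCh38.p14) listed a promoter for 40 of 46 members, and the 250 bases before each start were searched on both strands for TGACNNNGC, the core of that element. It was found in 13 of 40 members (32.5%) and in 3830 of 35116 listed promoters (10.9%). Members that rose and members that fell held it equally often, 6 of 16 each (37.5%), against 1 of 8 members not called. CCAAT, the letters bound by NFY, was in 18 of 40 members (45.0%) and 32.0% of all listed promoters, with 7 of 16 among those that rose and 6 of 16 among those that fell. For both motifs a member counted if any of its listed promoters held a match. The listed promoters were counted singly and were not limited to genes tested here. The shares of members and of all listed promoters are thus in unlike units. These are matches of letters, not sites. A pair that rose (PSMD12 and PSMD5) and a pair that fell (PSMB3 and PSMD3) are shown as examples of the match, whose 9 letters differ between them, 5′ to 3′ on the gene's strand, with the match in capitals; they lie at chr17:67366578-67366827 (minus strand), chr9:120842923-120843172 (minus), chr17:38752491-38752740 (plus) and chr17:39980557-39980806 (plus).
PSMD12: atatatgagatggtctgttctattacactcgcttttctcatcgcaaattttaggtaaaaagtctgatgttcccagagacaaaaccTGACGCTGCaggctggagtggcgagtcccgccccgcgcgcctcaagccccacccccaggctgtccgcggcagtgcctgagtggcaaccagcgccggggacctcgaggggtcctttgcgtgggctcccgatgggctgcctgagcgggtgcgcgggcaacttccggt
PSMD5: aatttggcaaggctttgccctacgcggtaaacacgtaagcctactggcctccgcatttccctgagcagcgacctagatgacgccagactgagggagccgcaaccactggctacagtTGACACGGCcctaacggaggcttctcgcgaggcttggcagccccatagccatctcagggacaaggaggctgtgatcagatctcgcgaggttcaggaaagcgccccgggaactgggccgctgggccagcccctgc
PSMB3: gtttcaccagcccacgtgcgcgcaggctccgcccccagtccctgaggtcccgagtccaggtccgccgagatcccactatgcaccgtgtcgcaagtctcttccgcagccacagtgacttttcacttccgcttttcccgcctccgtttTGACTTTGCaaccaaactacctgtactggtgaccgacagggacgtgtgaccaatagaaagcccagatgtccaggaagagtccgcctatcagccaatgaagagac
PSMD3: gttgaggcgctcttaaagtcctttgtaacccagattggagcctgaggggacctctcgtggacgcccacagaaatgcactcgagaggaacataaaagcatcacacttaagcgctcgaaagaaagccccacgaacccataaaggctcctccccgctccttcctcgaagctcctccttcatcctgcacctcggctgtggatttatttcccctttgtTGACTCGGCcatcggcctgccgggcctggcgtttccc
The matches began 165, 134, 104 and 37 bases before the start. The mRNA of these genes changed by 0.66, 0.49, -0.45 and -0.42 on the log2 scale. NFE2L1 itself had mRNA values of 5104 and 5080.1 with shNS, 3742 and 3320.5 with shBP2-1, and 3444 and 3901.5 with shBP2-2, and fell by 0.50 (log2; limma adjusted p = 0.000726). Its footprints changed by -0.11 ± 0.12 (log2, SE) and did not pass the test. Of 7 transcription control genes 1, NFE2L1, fell in mRNA and 3 rose (NFE2L2, NFYA and NGLY1). NFE2L2 mRNA rose by 0.32 (log2; limma adjusted p = 0.00807), and its footprints were not called (-0.50 ± 0.15, log2, SE; limma adjusted p = 0.0509). NFYA, a subunit of NFY, rose by 0.40 in mRNA and 0.73 in footprints (log2; limma adjusted p = 0.00179 and 0.0228). The part of these factors in the mRNA directions was not tested.

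Ribosome footprints of the same genes moved far less. Of the 46 members 5 rose and 1 fell. Of the 9306 genes tested 9.24% were called, 4.96% higher and 4.28% lower, so the members' share was near the background. The median size of the log2 change, whatever its sign, was 0.36 in mRNA and 0.11 in footprints for the members, and 0.35 and 0.22 for all 9216 genes tested in both assays. The median SE of the members was 0.095 in mRNA and 0.077 in footprints for the mean of both hairpins, 0.109 and 0.115 for shBP2-1, and the largest SE over both hairpins was 0.125 and 0.327. The part of the error in the number of footprint calls was not tested. The sign of a footprint change depends on the rescaling: with the values as deposited, the median of all genes was -2.26 and all 46 members were called lower.

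Across the 46 members the mRNA and footprint changes did not run together (Pearson r = -0.24, a description across genes that share libraries; -0.04 over 9216 genes), and 18 of 46 had the same sign. PSMD12 footprints were 702.1 and 781 with shNS, 776 and 714.8 with shBP2-1, and 760 and 793.8 with shBP2-2. The 3 groups overlapped, with a log2 fold change of 0.05 ± 0.07 (SE), beside the mRNA rise of 0.66. PSMC6 footprints were 533 and 518.8 with shNS, 501.8 and 450.5 with shBP2-1, and 451.6 and 452.1 with shBP2-2, lower in each knockdown library but not past the test (-0.18 ± 0.07, log2, SE; limma adjusted p = 0.117).

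**Figure D3:**
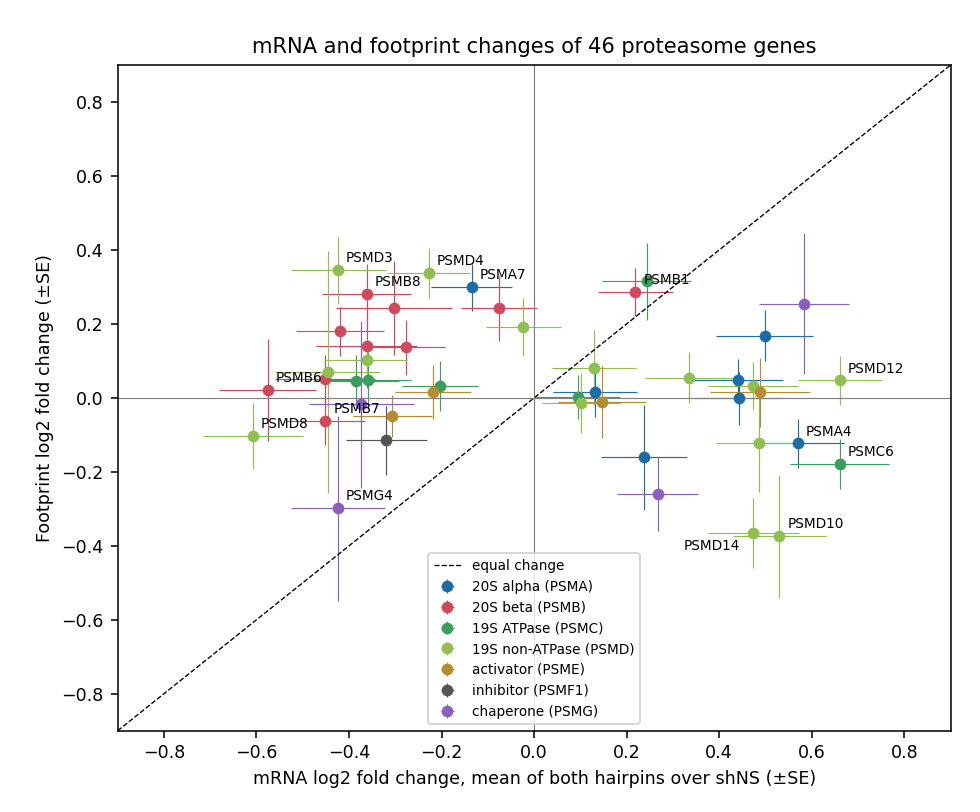
mRNA log2 fold change (x axis) against footprint log2 fold change (y axis) of the 46 members, mean of both hairpins over shNS, with SE bars; the dashed line marks equal change. Points spread from -0.61 to 0.66 in mRNA but only from -0.37 to 0.35 in footprints, and 18 of 46 share a sign.

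The footprints that rose were those of PSMD4, PSMA7, PSMB1, PSMB8 and PSMD3. PSMD4, a ubiquitin receptor of the regulatory particle, had footprint values of 474.8 and 464.5 with shNS, 608.8 and 696.2 with shBP2-1, and 567 and 522.2 with shBP2-2, while its mRNA was 2834 and 2924 with shNS, 2841 and 2464 with shBP2-1 and 2197 and 2370.5 with shBP2-2. Footprints lay above both controls in all 4 knockdown libraries, by 0.34 ± 0.07 (log2, SE; limma adjusted p = 0.00941), and mRNA lay below them in 3 of 4, by -0.23 ± 0.09 (log2, SE; limma adjusted p = 0.0416). That mRNA call was lost in 4 fits that left out a library, with limma adjusted p of 0.183 (shNS replicate 1), 0.259 (shNS replicate 2), 0.148 (shBP2-2 replicate 1) and 0.0514 (shBP2-2 replicate 2). PSMA7, an alpha subunit, had footprints of 621.5 and 672.8 with shNS, 832.9 and 796.7 with shBP2-1, and 805.8 and 748.3 with shBP2-2, with mRNA of 3388 and 3376 with shNS, 3538 and 3095 with shBP2-1, and 2788 and 2948 with shBP2-2. Its footprints did not overlap between knockdown and control (0.30 ± 0.06, log2, SE; limma adjusted p = 0.0125).

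PSMB1 rose in footprints too, from 688.4 and 763.9 with shNS to 909.8 and 949.3 with shBP2-1 and 880.4 and 806.8 with shBP2-2 (0.29 ± 0.07, log2, SE; limma adjusted p = 0.0181), and was the one member called higher in both assays. Its mRNA call was lost with equal totals (0.14, log2; limma adjusted p = 0.0776) and with quantile scaling (0.15; adjusted p = 0.0745). PSMB8 footprints were 328.1 and 367.1 with shNS, 401.4 and 390.9 with shBP2-1, and 461.6 and 433.3 with shBP2-2, above the controls in each library (0.28 ± 0.08, log2, SE; limma adjusted p = 0.0487). PSMD14 was the one member whose footprints fell, from 412.7 and 414.3 with shNS to 324.5 and 271.8 with shBP2-1 and 305.4 and 374.8 with shBP2-2, opposite to its mRNA (-0.37 ± 0.10, log2, SE; limma adjusted p = 0.0312). None of the 6 footprint calls held in all fits that left out 1 library: without shBP2-1 footprint replicate 2 there were 0, without replicate 1 there was 1, and without shBP2-2 replicate 1 there were 2. Without shBP2-1 replicate 2 the adjusted p was 0.121 for PSMD4, 0.0694 for PSMA7, 0.125 for PSMB1, 0.2 for PSMB8 and 0.218 for PSMD14.

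None of the other proteolytic subunits was called in footprints over the mean of both hairpins. PSMB5 footprints were 415.7 and 418.4 with shNS, 465 and 457.9 with shBP2-1, and 491.4 and 474.2 with shBP2-2, above both controls in each library without passing the test (0.18 ± 0.07, log2, SE; limma adjusted p = 0.116). PSMB6 footprints were 143.7 and 124.6 with shNS, 133.8 and 130.3 with shBP2-1, and 162.1 and 124.1 with shBP2-2, and overlapped (0.02 ± 0.14, log2, SE). PSMB7 footprints were 593.8 and 637.4 with shNS, 699.1 and 662.7 with shBP2-1, and 510.3 and 503.4 with shBP2-2. The hairpins lay on opposite sides of the control for this gene, and the fall with shBP2-2 was called (-0.28 ± 0.07, log2, SE; limma adjusted p = 0.0179), though not without shBP2-2 replicate 1, when 0 members were called for that hairpin. PSMB9 footprints were 88.2 and 86.3 with shNS, 113.7 and 96.8 with shBP2-1, and 94.5 and 103.3 with shBP2-2. PSMB10 footprints were 145 and 128.7 with shNS, 170.6 and 145.2 with shBP2-1, and 136.3 and 146.8 with shBP2-2. All 4 knockdown libraries lay above both controls for PSMB9, and 3 of 4 did for PSMB10; neither passed the test, at 0.24 ± 0.13 and 0.14 ± 0.11 (log2, SE; limma adjusted p = 0.251 and 0.479). Of the other mRNA movers described above, PSMD8 footprints were 277.7 and 283.8 with shNS, 284.3 and 342.5 with shBP2-1, and 235.8 and 206.6 with shBP2-2, PSMG2 footprints ranged from 89.6 to 155.2 over the 6 libraries and PSMF1 footprints from 176.1 to 240.8.

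Translational efficiency (TE), the footprint change minus the mRNA change, was called for 13 members higher and 10 lower of 46, and for 28.8% of the 9216 genes tested (13.2% higher, 15.6% lower). It contains the mRNA change with the opposite sign and is not a separate measurement. Beta genes had a median TE change of 0.50, with 6 of 10 higher and 0 lower, and alpha genes one of -0.39, with 1 of 7 higher and 3 lower; with the values as deposited both medians were negative. TE rose by 0.60 ± 0.13 for PSMB5 (log2, SE; limma adjusted p = 0.00426) and by 0.64 ± 0.14 for PSMB8 (adjusted p = 0.00453). It rose by 0.57 ± 0.12 for PSMD4 (limma adjusted p = 0.00392) and 0.77 ± 0.18 for PSMD3 (adjusted p = 0.00596). It fell by 0.84 for PSMC6 and PSMD14 (limma adjusted p = 0.00175 and 0.00246) and by 0.62 for PSMD12 (adjusted p = 0.00255).

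Of the 23 TE calls, 9 were of genes whose mRNA fell with no footprint call (PSMB3, PSMB4, PSMB5, PSMB6, PSMB7, PSMC3, PSMC4, PSMD2 and PSMD8) and 9 of genes whose mRNA rose with no footprint call (PSMA2, PSMA3, PSMA4, PSMC6, PSMD1, PSMD5, PSMD10, PSMD12 and PSMG1). PSMB8, PSMD3 and PSMD4 fell in mRNA and rose in footprints, and PSMD14 did the reverse. Over all genes 58.9% were called in mRNA and 9.24% in footprints. How often all genes had each of these joint patterns was not counted, so the patterns may not be particular to proteasome genes. Of the genes named here, PSMA4, PSMB5, PSMB8, PSMC6, PSMD2, PSMD3, PSMD4, PSMD10, PSMD12 and PSMD14 kept their TE calls without any one library. The other TE calls were lost in at least 1 fit that left out 1 library, those of PSMB6, PSMB7 and PSMD8 in several. The count of TE calls was 14 without shNS footprint replicate 1, 13 without its replicate 2 and 13 without shNS mRNA replicate 1, and 10 calls held without any one library. The 20S minus regulatory difference was 0.10 in footprints and 0.38 in TE (0.02 and 0.18 without PSMB8, PSMB9 and PSMB10).

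In control cells most proteasome mRNAs had more footprints per mRNA than the middle gene. The footprint to mRNA ratio was taken as log2 relative to the middle of 9216 genes in the shNS libraries. Coding length largely cancels in it, but the length of untranslated regions may not. Transcript lengths were not available, so their part in the order of genes and classes was not tested. The ratio was above the middle gene for 40 of 46 members, including all 17 core genes, with a median of 1.31 and 1.37 in the shNS replicates. The 20S genes had medians of 1.68 and 1.80, the regulatory genes 1.21 and 1.30, and the PSMG chaperones 0.04 and 0.14. PSMA2 was highest at 2.52 ± 0.10 (SD, n = 2), followed by PSMB3 at 2.49 ± 0.02 and PSME1 at 2.40 ± 0.05, and the PSMA2 replicates (2.45 and 2.59) enclosed those of PSMB3 (2.50 and 2.48). PSMG3 at -0.67 ± 0.13 and PSMD9 at -0.43 ± 0.14 were lowest (SD, n = 2). With knockdown the beta median was 2.13 and 2.25 (shBP2-1) and 2.45 and 2.17 (shBP2-2), against 1.65 and 1.66 with shNS; the alpha median was 1.77 and 1.49, then 1.37 and 1.57, against 1.77 and 1.90.

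**Figure D4:**
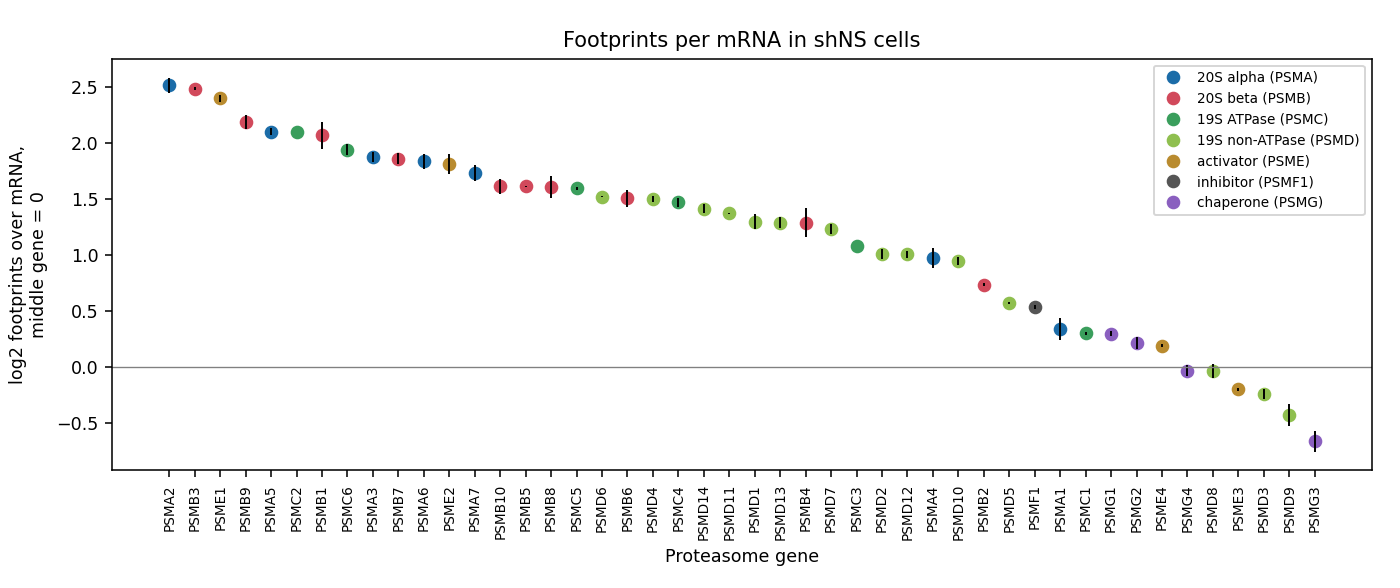
log2 footprints over mRNA of each member with shNS (point, mean; line, the range of the 2 libraries), with the middle of 9216 genes at 0; members are ordered by the ratio and coloured by class. PSMA2 at 2.52 is highest and PSMG3 at -0.67 lowest, and 40 of 46 lie above 0.

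The hairpins differed for a few members. Each hairpin was set against the same shNS libraries: shBP2-1 gave 16 members higher and 7 lower in mRNA, where 44.4% of all genes were called (23.5% higher, 21.0% lower). shBP2-2 gave 13 higher and 20 lower, where 57.0% were called (28.2% higher, 28.8% lower). Of these members 13 were higher and 7 lower with both hairpins, and 0 were called in opposite directions. The share of all genes called alike with both hairpins was not counted, so these numbers are not read as particular to the members. The shBP2-1 count of 23 became 36 or 12 when the first or second shBP2-1 library was left out, and 8 or 11 when the first or second control library was. The shBP2-2 count of 33 became 20 when the first library of that hairpin was left out. In footprints shBP2-1 gave 3 higher and 0 lower (6.74% of all genes called; 3.86% higher, 2.88% lower) and shBP2-2 gave 2 and 2 (12.3%; 7.02% higher, 5.32% lower), and both counts reached 0 without 1 library, shBP2-1 replicate 1 or 2 and shBP2-2 replicate 1. In TE shBP2-1 gave 1 higher and 5 lower (10.8% of all genes called; 4.84% higher, 5.91% lower) and shBP2-2 gave 11 and 9 (23.9%). The shBP2-1 TE count became 23 without mRNA replicate 1 of that hairpin and 0 without its footprint replicate 2; the shBP2-2 TE count became 31 without either shBP2-1 mRNA library and 11 without shBP2-2 footprint replicate 1. The TE difference between hairpins was called by limma for 0 members (0.868% of all genes), with 2 at an unadjusted p under 0.05 and 2 called by the trend test. Between the hairpins, 7 members differed in mRNA, all with more in shBP2-1 (23.3% of all genes called; 11.5% higher, 11.8% lower), and 2 in footprints, 1 in each direction (6.26%; 3.27% higher). PSMB7 differed most firmly, with shBP2-1 above shBP2-2 by 0.70 ± 0.10 in mRNA (log2, SE; limma adjusted p = 0.000262) and 0.43 ± 0.10 in footprints (adjusted p = 0.0249). PSMF1 differed by 0.51 ± 0.10 in mRNA (log2, SE; limma adjusted p = 0.00289). The mRNA calls of PSMB7 and PSMF1 held without any one library; without shBP2-2 replicate 1 the count was 2, and without shBP2-1 replicate 2 it was 14. PSMD10 had footprints of 86.9 and 84.4 with shNS, 50.2 and 37.2 with shBP2-1, and 99.5 and 94.2 with shBP2-2, from deposited values of 15 and 10 in the shBP2-1 libraries. Its footprints were lower in shBP2-1 by -1.09 ± 0.30 (log2, SE; limma adjusted p = 0.0477), while its mRNA rose alike with both hairpins, from 765.3 and 793.3 with shNS to 1025 and 1218 with shBP2-1 and 1187 and 1083 with shBP2-2. Neither footprint difference held in any of the 4 fits that left out 1 knockdown footprint library, with adjusted p of 0.247, 0.359, 0.0844 and 0.0751 for PSMD10 and 0.285, 0.151, 0.0653 and 0.0972 for PSMB7 (shBP2-1 replicates 1 and 2, shBP2-2 replicates 1 and 2).

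Replicate mRNA libraries of one hairpin differed along the same line as the knockdown change. In shBP2-1 replicate 2 lay further from shNS than replicate 1 for nearly all members: the replicate 2 minus 1 difference had the sign of the mRNA change in 45 of 46 (r = 0.93 over 46 members, 0.52 over 12203 genes). In shBP2-2 replicate 1 lay further out, with the same sign in 3 of 46 (r = -0.91; -0.38 over all genes). These libraries enter the change itself. Against the change of the other hairpin, which shares no library with the replicate difference, r was 0.91 for shBP2-1 replicates and -0.90 for shBP2-2 replicates. The SD of the replicate difference over members was 0.24 and 0.16 for the hairpins and 0.06 for shNS (log2). In footprint libraries r was 0.03 for shBP2-1 and -0.08 for shBP2-2. The part of this spread in the mRNA result was not tested.

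**Figure D5:**
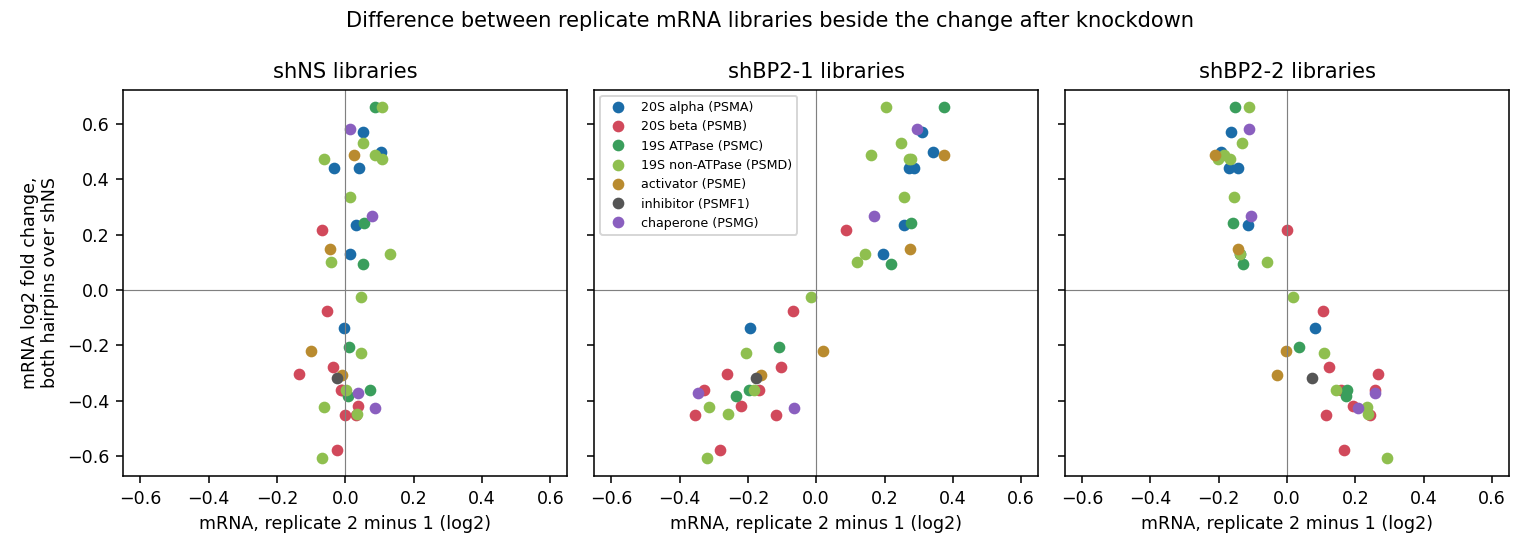
Difference between mRNA replicate libraries (replicate 2 minus 1, log2, x axis) against the mRNA log2 fold change over both hairpins (y axis) for the 46 members, 1 panel per group. Points rise with r = 0.93 in shBP2-1, fall with r = -0.91 in shBP2-2 and stay within a narrow band in shNS (SD 0.06).

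Genes that build, regulate or feed the proteasome were called at shares that can be read against those of all genes. Of 39 such genes 16 rose and 11 fell in mRNA, 6 rose and 3 fell in footprints, and TE was higher for 7 and lower for 11. Over all genes tested the calls were 58.9% in mRNA, 9.24% in footprints and 28.8% in TE, so more calls in mRNA than in footprints is not particular to these genes. POMP, the chaperone that completes the core, rose in mRNA from 2560.1 and 2650.4 with shNS to 3821 and 4779 with shBP2-1 and 4649 and 4184 with shBP2-2 (0.74 ± 0.10, log2, SE; limma adjusted p = 0.000223), while its footprints changed by -0.08 ± 0.08. USP14, a deubiquitinase on the regulatory particle, rose in mRNA by 0.62 and in footprints by 0.26. UCHL5, another such enzyme, rose by 0.43 in mRNA and fell by 0.34 in footprints (log2). VCP, an unfoldase that hands ubiquitinated proteins on to the proteasome, fell in mRNA by 0.29 and rose in footprints by 0.33 on the log2 scale.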

How the data were processed

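The authors deposited 1 table of normalized read counts rounded to whole numbers (a score here, neither raw counts nor per-million values), with 6 mRNA and 6 footprint columns. Per the submitters' processing notes, FastQC, cutadapt, Bowtie, STAR, RSEM and hg38 were named; versions are not given in the sources used here, nor is how reads shared with pseudogenes were assigned, and 21 members have a listed pseudogene (13 for PSMC1). No raw counts were used, so no count model was run, and the table gives no depth for counting intervals.

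Libraries were rescaled within each assay by median-ratio factors (footprints 0.269 to 2.993). Genes with mean at least 10 were tested with limma 3.58.1 (R 4.3.3) with voom weights (prior 0.5), 1 mean per group, 2 libraries each, two-sided, Benjamini-Hochberg over all genes; TE was the interaction over 12 libraries (residual df 3 per assay, 6 for TE). The procedure was tested on simulated data, with noise drawn independently for each gene and set alike in all groups. The simulation held no replicate differences shared across genes, such as those of the hairpin mRNA libraries, so it does not bear on them. Members, lists and tests were chosen with earlier results of these data known. Values per library were given for PSMB5 to PSMB10, for the 3 called members with the smallest p per assay and direction and for 2 per hairpin difference; PSMA4 and the pathway genes shown were chosen after their values were seen. Some pathway genes are not reported here. Alternatives were no rescaling, equal totals, quantile scaling, a trend test with pseudocount 1 or 5, no minimum, a minimum of 50, a replicate block, 1 fit over all libraries, and each library left out. Promoter sequences are from RefSeq GRCh38.p14.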

Additional observations from a re-analysis of the deposited data

Results flagged for a closer look

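The change against shNS differed between the hairpins, by limma's test of shBP2-1 minus shBP2-2 over all genes, for these proteasome genes. In mRNA the difference (log2) was 0.70 for PSMB7, 0.51 for PSMF1, 0.46 for PSMB6, 0.42 for PSMD8, 0.38 for PSMB3, 0.36 for PSMB4 and 0.32 for PSMD2, in each case with the lower level in shBP2-2. In footprints it was 0.43 for PSMB7 and -1.09 for PSMD10. Of the 7 mRNA differences, those of PSMB7 and PSMF1 held in limma without any one library; without shBP2-2 replicate 1 the other 5 were lost (adjusted p of 0.133 for PSMB6 and 0.244 for PSMD8). Those of PSMB6 and PSMD8 also missed the threshold without shBP2-1 replicate 1 (0.0845 and 0.0777), with equal totals (0.0625 and 0.0917) and with no minimum (0.0603 and 0.0986). IGF2BP2 mRNA was at 20.3% of control with shBP2-1 and 31.2% with shBP2-2, so the hairpin that left more of the target mRNA had the lower mRNA of these 7 genes. IGF2BP2 footprints were 192.1 and 195.6 with shNS, 6.7 and 14.9 with shBP2-1, and 19.9 and 21.4 with shBP2-2. Their difference between hairpins was not called (-0.86 ± 0.55, log2, SE, limma adjusted p = 0.373). The part of the hairpins' other differences was not tested.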

How the results depend on the processing

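The mRNA counts over both hairpins stayed between 31 and 38 of 46 under every setting that kept all libraries. Footprint and TE results depended on the rescaling. With values as deposited, footprints were called lower for 46 members in each of the 4 contrasts, and TE for 46 over both hairpins, 46 with shBP2-1, 38 with shBP2-2 and 46 in the difference between hairpins. There the footprint changes of PSMA7, PSMB1, PSMB8 and PSMD4 were -1.96, -1.97, -1.97 and -1.91, the PSMB7 difference was -1.71, and the TE changes of PSMA7, PSMB5, PSMB6, PSMB7, PSMB8, PSMD4 and PSMD8 were -1.81, -1.64, -1.62, -1.86, -1.6, -1.67 and -1.73. Footprint calls for both hairpins, shBP2-1, shBP2-2 and the difference were 3, 6, 0 and 6 with quantile scaling, 3, 7, 0 and 5 in the trend test, 3, 8, 0 and 6 with pseudocount 5, and 0 in all 4 with 1 fit over 12 libraries. TE calls with shBP2-1 and in the difference were 19 and 2 with quantile scaling, 17 and 2 in the trend test, 18 and 2 with pseudocount 5, and 12 and 1 with a minimum of 50. Equal totals gave 4 calls in the mRNA difference and 1 for shBP2-1 footprints; no minimum gave 15 for shBP2-1 mRNA, 3 in the mRNA difference, and 1 for shBP2-1 footprints and for the footprint difference. Without PSMB8, PSMB9 and PSMB10 the 20S minus regulatory difference was -0.07 in mRNA, 0.017 in footprints and 0.181 in TE. The cause of these shifts was not tested.

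The labels do not say whether same-numbered libraries pair. Over all mRNAs the correlation of replicate differences was 0.11 for shNS with shBP2-1, -0.06 for shNS with shBP2-2 and -0.36 between the hairpins. Over the 46 members it was 0.37, -0.37 and -0.94. These values cannot tell whether libraries of different groups were prepared together, under the same or another number. The fit with a replicate block called 31 members in mRNA over both hairpins, 15 with shBP2-1, and 9 in shBP2-2 footprints. Under the block the PSMB1 mRNA change had a limma adjusted p of 0.091.

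Leaving out 1 library gave, for both hairpins, shBP2-1, shBP2-2 and the difference, 19 to 40, 8 to 36, 20 to 39 and 2 to 14 calls in mRNA, 0 to 9, 0 to 4, 0 to 9 and 0 to 3 in footprints, and 13 to 32, 0 to 23, 11 to 31 and 0 to 0 in TE. The 20S minus regulatory difference ran from -0.323 to -0.142 in mRNA, 0.045 to 0.119 in footprints and 0.294 to 0.458 in TE. Deposited footprint values of PSMD9 were 9 and 2 with shBP2-1, and such low values limit what footprints can show.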
